A study of Mus musculus with 8 samples.

Results

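Chromatin accessibility at the 10 genes that encode subunits of the transcription factor AP-1 was examined in alveolar macrophages (AMs), the resident macrophages of the lung airspaces. The genes were Fos, Fosb, Fosl1 and Fosl2 (FOS family), Jun, Junb and Jund (JUN family), Batf and Batf3 (BATF family) and Atf3. Their regions were all ATAC-seq peaks that overlapped a gene body or the 20 kb on either side of it in any of 8 libraries, merged where they shared a base. This gave 100 of the 82424 merged regions of the genome, 92 of them present in 2 or more libraries (72711 genome-wide, the consensus regions) and 68 present in all 8 (47499 genome-wide). The last are called shared regions.

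AP-1 is a dimer of basic leucine zipper proteins. FOS proteins cannot pair with themselves and need a JUN partner, JUN proteins can pair with one another, and BATF and ATF3 proteins also pair with JUN. The dimers bind the DNA sequence TGACTCA or its reverse complement TGAGTCA, and at many macrophage enhancers such sites lie beside sites for PU.1, the factor that defines the myeloid lineage. Several of the genes, Fos and Atf3 among them, are immediate early genes that are switched on within minutes by growth factors, cytokines and stress through MAP kinases.

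ATAC-seq uses a transposase that cuts open chromatin and inserts sequencing adapters. The AMs came from bronchoalveolar lavage of adult mice, and both groups carried loxP-flanked alleles of the retinoid X receptor genes Rxra and Rxrb (Rxrab fl/fl). The study describes the cells as sorted mature AMs, although a supplementary legend names the KO cells of its ATAC-seq comparison as immature AMs. The 4 KO libraries, replicates 1_2, 1_3, 2 and 3, came from CD11cCre+ Rxrab fl/fl mice, in which a CD11c promoter drives Cre and thereby the deletion in AMs and in other cells that express CD11c. The 4 WT libraries, replicates 1_2, 1_3, 3 and 4, came from Rxrab fl/fl mice without Cre. Values listed for a genotype follow these orders of replicates. The sources used here do not say whether 1_2 and 1_3 share an animal or whether a library pools animals, so the p-values measure only the spread between these libraries, which may in part be technical.

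The depth of a library was judged here only through its peaks, and the sequencing quality metrics that the study provides were not used. The lists held 60363 to 72484 peaks, and the genome-wide background was 1.12 to 2.26 tags per 200 bp, highest in WT replicate 1_3, where a tag is a read end extended to 200 bp. At promoters of AM marker genes, 7 of 8 (Siglecf, Itgax, Marco, Pparg, Car4, Fabp4 and Mrc1) had a peak in every library and Chil3 had none. None of the 6 T and B cell markers had a promoter peak in any library, whereas Ly6c2, Cx3cr1, S100a8, Epcam, Cdh1 and Pecam1, markers of monocytes, neutrophils, epithelium and endothelium, had 1 in all 8, and Ccr2 had 1 in 1 KO and 1 WT library. Ly6g, Mpo, Sftpc, Cdh5 and Tek, markers of the same cell types, had none in any library. Cdh1 is also counted by the study among the AM-core genes. The part of other cells in the results was not tested. Of the regions within the deleted genes, 1 of 16 in Rxra had a peak in all 4 WT libraries and in no KO library, and none of 2 in Rxrb did. At Xist, 2 of 3 regions had a peak in all 4 KO libraries and in no WT library, and because the labels give no sex per library, sex and genotype cannot be told apart in any comparison here.

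The locus with differences between genotypes at the most regions was Fos, which encodes the founding FOS protein. Fos (ENSMUSG00000021250.13) lies on the plus strand at chr12:85473890-85477273 (mm10), and no other gene of the annotation falls within 20 kb of it. Of its 12 regions, 1 had a peak in every WT library and in no KO library, 2 of the 8 shared regions had more tags in KO and 1 had fewer. Genome-wide, 5.81% of the shared regions were called higher in KO and 7.03% lower (limma, adjusted p under 0.05). A peak in every WT and no KO library was found at 0.820% of the consensus regions. Fos was singled out by these same counts, and the locus as a whole was not tested. The 4 Fos regions are printed because they carry the differences. Each sequence is the plus strand of mm10, 201 bases long and centred on the summit of the strongest peak, and is named by the distance from the Fos start site. Capitals mark a CArG box, the element bound by serum response factor, which is a known regulator of Fos. No letters are in capitals where none of the searched motifs was found.

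Fos -17.1 kb: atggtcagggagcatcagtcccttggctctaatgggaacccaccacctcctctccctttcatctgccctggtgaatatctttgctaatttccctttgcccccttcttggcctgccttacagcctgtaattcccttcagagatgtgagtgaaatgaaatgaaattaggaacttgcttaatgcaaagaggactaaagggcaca
Fos -6.3 kb: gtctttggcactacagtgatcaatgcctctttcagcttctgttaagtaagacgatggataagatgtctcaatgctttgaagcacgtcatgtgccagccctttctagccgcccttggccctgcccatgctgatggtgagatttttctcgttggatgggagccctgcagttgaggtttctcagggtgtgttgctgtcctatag
Fos -1.6 kb: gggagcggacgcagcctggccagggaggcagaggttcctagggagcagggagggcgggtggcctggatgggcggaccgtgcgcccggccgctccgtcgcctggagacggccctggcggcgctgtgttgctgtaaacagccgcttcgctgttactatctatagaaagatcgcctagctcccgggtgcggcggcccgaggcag
Fos +12.2 kb: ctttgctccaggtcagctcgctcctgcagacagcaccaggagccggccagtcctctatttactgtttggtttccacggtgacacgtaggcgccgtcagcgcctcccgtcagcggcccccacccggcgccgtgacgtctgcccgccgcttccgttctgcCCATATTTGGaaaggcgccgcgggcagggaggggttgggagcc

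The windows shown are chr12:85456716-85456916, chr12:85467536-85467736, chr12:85472180-85472380 and chr12:85485956-85486156, and all of them are intergenic. They differ in base composition. The window at -17.1 kb had a GC content of 47.3% and no CpG, that at -6.3 kb 49.8% and 4 CpGs, that at -1.6 kb 69.7% and 20 CpGs, and that at +12.2 kb 66.7% and 19 CpGs.

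The region at -6.3 kb (chr12:85467489-85467882) had 94, 104, 86 and 75 tags at its summit in WT, a mean of 89.8 ± 12.3 (SD, n = 4). No KO library had a peak there. It was the only region of the 92 at AP-1 subunit genes with a peak in all libraries of 1 genotype and none of the other, where 0.820% of all regions were specific to WT and 0.285% to KO, so a count of 1 is near the background. The count became 2 without WT replicate 1_3 and without WT replicate 3, when a Fosl2 region joined it. Among the 596 WT-specific regions of the genome, whose median was 19.5 tags, 10 had a higher mean than the Fos region. In bulk material, fewer cells with the site open and a lower signal per cell cannot be told apart.

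The lists do not say how many tags the KO libraries had at -6.3 kb, since a site below the threshold is not listed. At the next region, 1202 bp away at -5.1 kb, all 8 libraries had a peak, at 209, 238, 148 and 182 for KO and 180, 253, 222 and 169 for WT. The KO values there lay within the range of the WT values apart from the 148 of KO replicate 2 (log2 difference 0.13, SE 0.094, limma adjusted p = 0.414). At the local background of that neighbour, a peak would have needed 50, 50, 42 and 40 tags in KO. In every WT library the background at -6.3 kb itself, 17.1 to 24.8 tags, was lower than at that neighbour, 22.5 to 31.2, so the tags needed in KO may have been fewer. No listed peak is narrower than 200 bp, and the WT peaks at -6.3 kb were 310 to 392 bp wide, so a KO site of the same height but under 200 bp wide would also be missing.

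The region at -1.6 kb (chr12:85471941-85472671) changed in the other direction. It held 347, 316, 281 and 286 tags in KO, and 253, 301, 288 and 233 in WT. Unscaled values overlapped between the genotypes. After each library was centred on its median over the shared regions of the genome, the means were 330.2 ± 14.3 in KO and 249 ± 18.6 in WT (SD, n = 4), a 1.33-fold higher level in KO with a log2 difference of 0.41 (SE 0.080, limma adjusted p = 0.00024). The call held in 13 of 14 alternatives and was lost with scaling by depth, where the log2 difference was 0.35 and the adjusted p 0.214 (range over alternatives 5.16e-06 to 0.214).

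At -17.1 kb (chr12:85456627-85457026), tags were lower in KO. The KO libraries held 84, 75, 68 and 51 tags and the WT libraries 103, 127, 124 and 80. WT replicate 4 was below the highest KO value, and the other WT libraries were above all 4 KO libraries. The centred means were 74.2 ± 9.71 in KO and 99.5 ± 10.1 in WT (SD, n = 4), a log2 difference of -0.43 (SE 0.122, limma adjusted p = 0.0144). This call was lost without KO replicate 3 (adjusted p = 0.0870), without WT replicate 3 (0.0843) and with scaling by depth (0.0903), over a range of 0.00690 to 0.0903.

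Downstream at +12.2 kb (chr12:85485802-85486346), the region with the CArG box held 371, 285, 286 and 288 tags in KO and 289, 307, 322 and 265 in WT. KO replicate 1_2 was the highest of all, and the other KO values lay among those of WT. Its log2 difference was 0.26 (SE 0.087, limma adjusted p = 0.0347). The call was lost in 8 of 14 alternatives, those without KO replicates 1_2 (adjusted p = 0.166), 2 (0.0612) or 3 (0.104), without WT replicates 1_2 (0.0592) or 1_3 (0.161), with 1_2 and 1_3 as 1 sample (0.0770), and with scaling by depth (0.653) or quantiles (0.0627).

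The strongest Fos region was neither the promoter nor a region that was called. It lay at -18.4 kb (chr12:85454842-85455776), upstream of the region that fell, with 453, 436, 386 and 386 tags in KO and 419, 472, 452 and 370 in WT, at a mean strength percentile of 98.2 (the rank of its −log10 p among the peaks of a library, averaged over libraries). Its groups overlapped (log2 difference 0.17, SE 0.075, limma adjusted p = 0.126). The Fos promoter itself (chr12:85473400-85474195) held 267, 212, 249 and 192 tags in KO and 211, 221, 273 and 223 in WT. Here too the groups overlapped, with a log2 difference of 0.20 (SE 0.101, limma adjusted p = 0.210). The remaining shared Fos regions, at +5.0 and +15.6 kb, had log2 differences of 0.45 (SE 0.166, limma adjusted p = 0.0624) and 0.12 (SE 0.092, adjusted p = 0.428). At -11.3, -10.8 and +16.2 kb, peaks were found in 2 to 5 libraries of both genotypes.

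**Figure D1:**
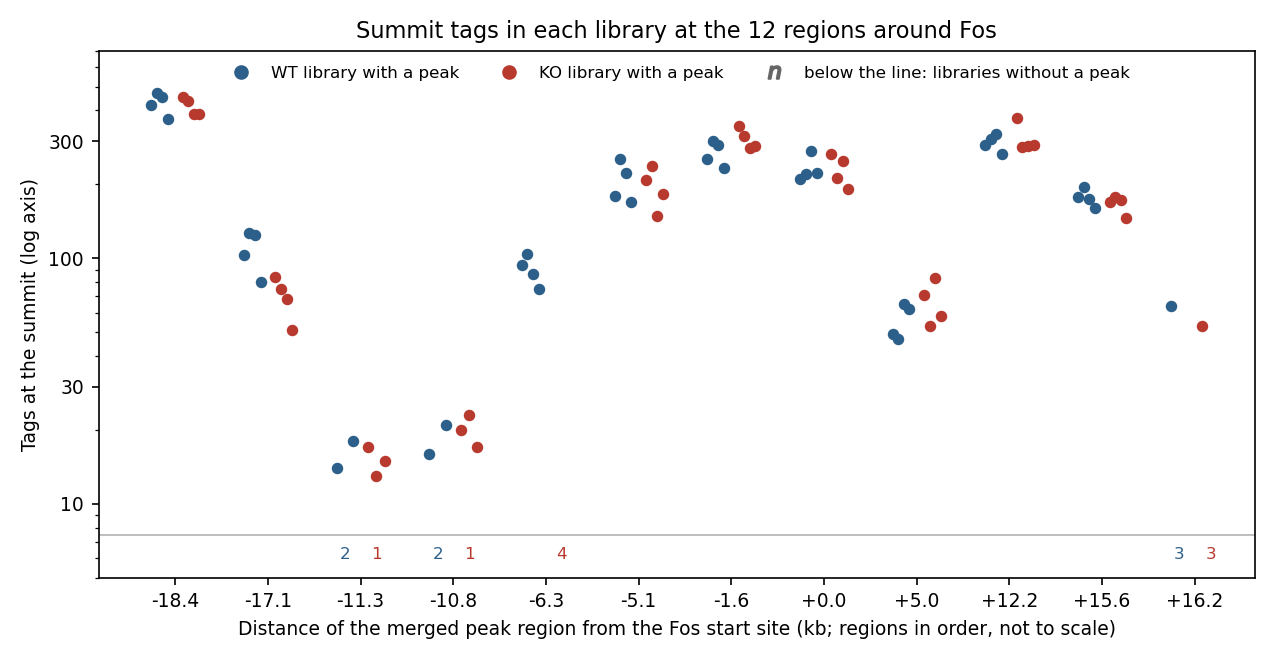
Summit tags (log axis) of each library with a peak at the 12 Fos regions, ordered by distance from the start site in kb; WT libraries are blue, KO libraries red, and digits below the line count the libraries without a peak. At -6.3 kb the 4 WT libraries sit between 75 and 104 tags and no KO library has a peak, whereas at -17.1 kb the KO points reach from 51 to 84 and at -1.6 kb from 281 to 347.

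Across all 10 genes, 5 of the 68 shared regions were called higher in KO, where 5.81% of all regions were, and 1 was called lower, where 7.03% were. The shares of the members were 7.35% and 1.47%. Besides the 3 at Fos, the called regions were 1 at Fosb and 2 at Junb. The median log2 difference over the 68 was 0.12, with 50 above and 18 below 0, and over all regions tested it was 0.04, with 57.6% above 0. With median centring, regions of high signal were shifted upward in general. Among regions with a mean of at least 100 tags the median was 0.14 for the 39 at AP-1 subunit genes and 0.07 for all 16339.

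These counts depended on single libraries and on scaling. Without KO replicates 1_2, 2 or 3 the calls higher in KO came to 2, 3 and 2 (2038, 1926 and 1823 over all regions). Without WT replicates 1_2, 1_3 or 4 they came to 3, 1 and 11 (2348, 2115 and 3269 over all regions). With all libraries the calls over all regions were 2759. The single lower call was absent without KO replicate 3 or WT replicate 3. Scaling by depth left 0 limma calls in either direction (5 at an unadjusted p under 0.05, against 21 with median centring). It put 45 of the 68 differences above 0, where 47.6% of all regions were. Quantile normalisation gave 3 higher and 3 lower, with 48 above 0, where 54.2% of all regions were. No share over all regions was set beside the counts at an unadjusted p, here or below.

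**Figure D2:**
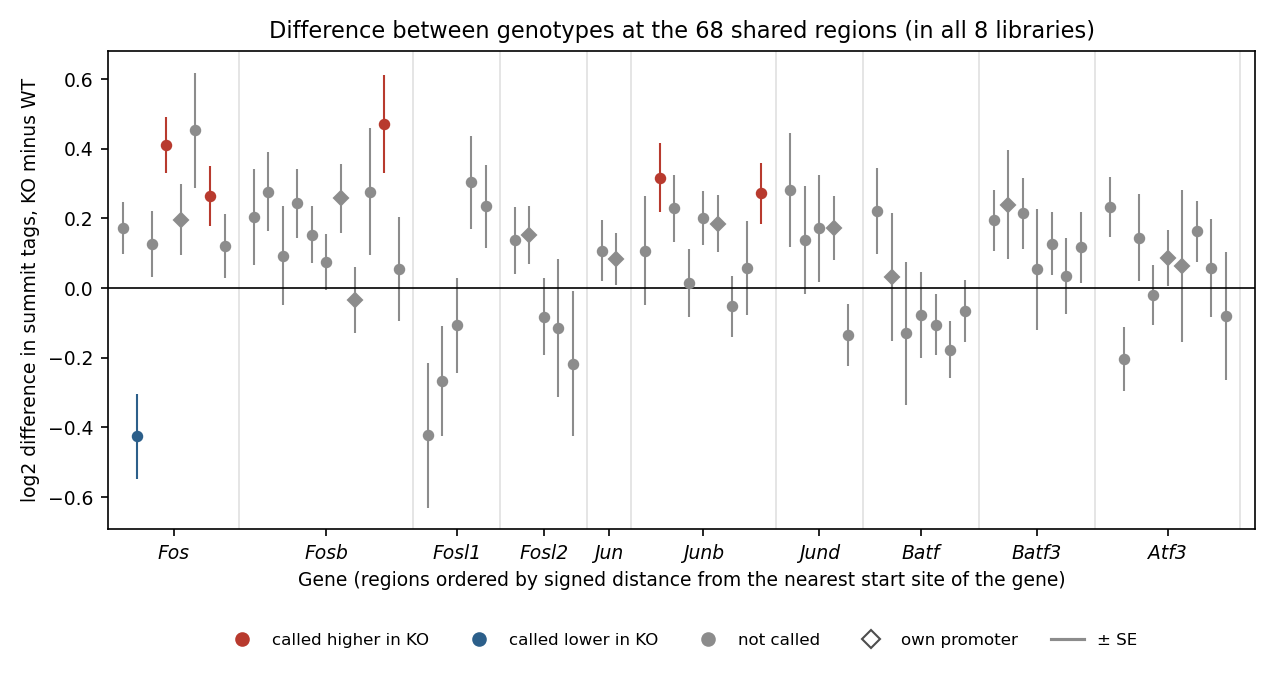
The log2 difference in summit tags (KO minus WT, vertical axis) with its SE at the 68 shared regions, grouped by gene; diamonds are a gene's own promoter, red points were called higher in KO, blue lower, grey neither. Most points lie above 0 (50 of 68), and the single blue point is the Fos region at -17.1 kb.

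The promoters of the AP-1 subunit genes fell into groups of high and low signal. The height at a summit counts tags over the same 200 bp in every region, so promoters can be set side by side without a correction for length. In WT, centred tags were 348 ± 2.48 at Jun, 303 ± 42.2 at Fosl2, 282 ± 19.3 at Atf3, 263 ± 43.2 at Jund, 253 ± 29.5 at Fosb, 229 ± 8.0 at Junb and 217 ± 41.5 at Fos (SD, n = 4). Neighbours in this order overlapped in their WT values. Below them and without overlap came Batf3 at 54.7 ± 15.2 and then Batf at 30.5 ± 5.77. Where a gene had several promoter regions, the strongest was used.

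**Figure D3:**
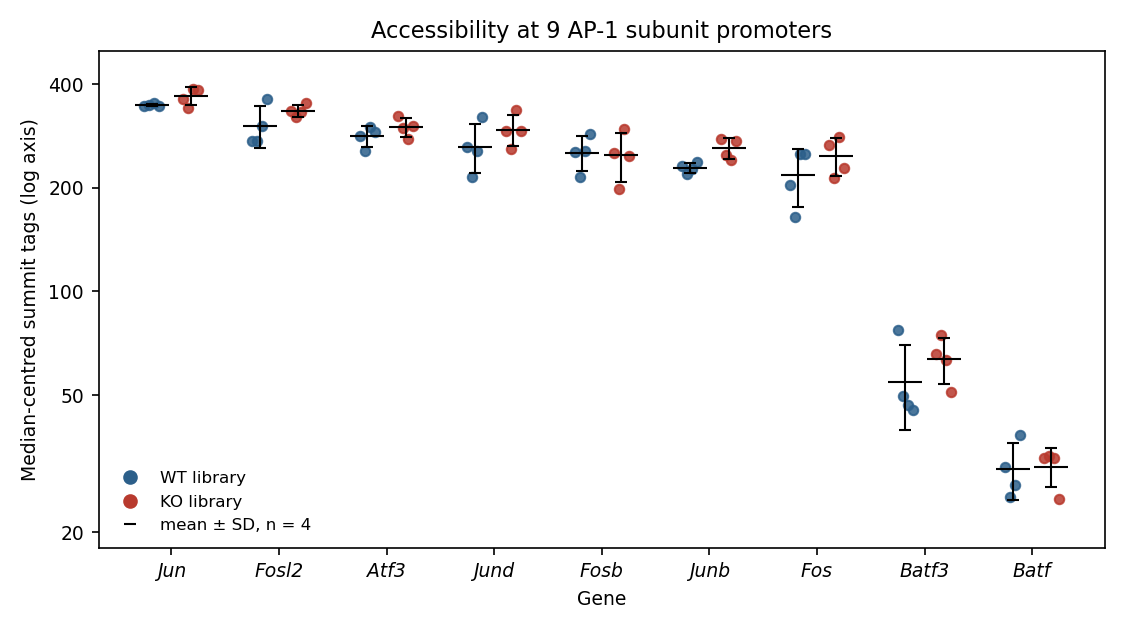
Median-centred summit tags (log axis) at the strongest promoter region of 9 AP-1 subunit genes, with each WT (blue) and KO (red) library as a point and the mean ± SD of 4 libraries in black; Fosl1 is left out because 1 WT library had no peak there. Jun to Fos lie between 165 and 388 in every library, Batf3 between 45.2 and 77.4 and Batf lowest.

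None of the 11 shared promoter regions was called by limma (2 had an unadjusted p under 0.05), with 10 of 11 differences above 0 and a median of 0.15, although 3 of them (at Fosl2, Fosb and Jund) were called higher in KO without WT replicate 4. Over all 13452 promoter regions tested the median was 0.09, with 72.4% of differences above 0, and 6.84% were called higher and 2.77% lower. The shift at the promoters of AP-1 subunit genes was in the direction of that of promoters in general, and its difference from them was not tested.

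Fosb, a FOS paralog that is induced with Fos, lies on chr7:19302696-19310051 on the minus strand (ENSMUSG00000003545.3) and had 14 regions, 11 of them shared. A region in an exon of the neighbouring gene Rtn2, which encodes a reticulon, lay 13.6 kb downstream of the Fosb start (chr7:19295809-19296185) and was higher in KO. Its tags were 67, 70, 64 and 61 in KO and 59, 54, 56 and 50 in WT, so that the lowest KO value exceeded the highest WT value before any scaling. The log2 difference was 0.47 (SE 0.142, limma adjusted p = 0.0200), a 1.39-fold higher level. The call was lost without KO replicate 2 (adjusted p = 0.0501), KO replicate 3 (0.0523) or WT replicate 1_3 (0.108) and with scaling by depth (0.259).

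The Fosb promoter region at -0.4 kb (chr7:19309890-19310596), which holds a CArG box, had 180, 162, 138 and 129 tags in KO and 135, 156, 168 and 130 in WT. These values overlapped, with a log2 difference of 0.26 (SE 0.099, limma adjusted p = 0.0777). The stronger promoter region at +0.9 kb (chr7:19308118-19308967) had 254, 196, 262 and 208 tags in KO against 263, 288, 280 and 254 in WT, and differed by -0.03 (SE 0.095, adjusted p = 0.863). Farther upstream, at -6.6 kb (chr7:19316202-19317051), the strongest Fosb region reached 361 to 463 tags in KO and 407 to 481 in WT, with overlap (log2 difference 0.08, SE 0.080, adjusted p = 0.590). The sign of the last 2 differences turned under some alternatives.

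Fosl1, which encodes FRA1, a FOS protein without a strong transactivation domain, had few tags at its promoter. The gene lies at chr19:5447547-5455946 on the plus strand (ENSMUSG00000024912.6). Its promoter region (chr19:5447501-5448045) had 25, 22, 19 and 13 tags in KO, and 36, 34 and 24 in WT replicates 1_2, 1_3 and 4, with no peak in WT replicate 3. The Batf promoter had 32 and 34 tags in WT replicates 1_2 and 1_3, so Fosl1 was not below it there. In KO the Batf promoter had 33, 33, 29 and 21 tags and in WT replicate 4 it had 34, each above the Fosl1 value. In WT replicate 3, where Fosl1 had no peak, Batf had 30. The 3 WT values of Fosl1 lay above all but the highest KO value, and no test was made because 1 library had no peak. None of the 5 shared Fosl1 regions was called by limma (2 at an unadjusted p under 0.05). Of the 7 Fosl1 regions the strongest lay 26.3 kb downstream of the start, at the promoter of Efemp2 (chr19:5473642-5474175), with 104, 90, 95 and 100 tags in KO and 84, 101, 105 and 94 in WT. Those groups overlapped (log2 difference 0.24, SE 0.119, limma adjusted p = 0.200).

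Fosl2, which encodes FRA2, had an open promoter in all libraries. The gene lies at chr5:32135801-32157842 on the plus strand (ENSMUSG00000029135.10), and its promoter region (chr5:32134934-32136123) held 335, 318, 295 and 298 tags in KO and 283, 367, 331 and 322 in WT. KO lay within the range of WT before scaling, and the log2 difference was 0.15 (SE 0.083, limma adjusted p = 0.237). Without WT replicate 4 the adjusted p was 0.0257 and the log2 difference 0.24. The strongest distal region, at -13.2 kb (chr5:32121963-32122791), held 132 to 149 tags in KO and 141 to 169 in WT (log2 difference 0.14, SE 0.097, adjusted p = 0.382). None of its 5 shared regions was called by limma or had an unadjusted p under 0.05. Fosl2 also had the regions closest to a one-sided pattern after that at Fos. An intronic region at +3.2 kb (chr5:32138857-32139130) had 78, 95 and 71 tags in WT replicates 1_2, 3 and 4 and no peak in WT replicate 1_3 or any KO library. The tags of those libraries there are not known. Directly beside it, the shared region at +2.8 kb (chr5:32138423-32138810) held 96, 114, 104 and 104 tags in KO and 105, 156, 157 and 105 in WT. That neighbour was not called (log2 difference -0.08, SE 0.111, limma adjusted p = 0.682). At -15.8 kb (chr5:32119877-32120131), WT replicates 1_2, 1_3 and 4 had 32, 34 and 27 tags, and WT replicate 3 and the KO libraries had no peak.

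Jun, whose protein is the main activating partner of FOS, had the promoter with the highest mean of centred tags in WT and the fewest regions. The WT values of that promoter overlapped those of the Fosl2 promoter. The gene lies at chr4:95049034-95052222 on the minus strand (ENSMUSG00000052684.4) and had 3 regions. At its promoter (chr4:95051665-95052926), tags were 364, 337, 344 and 325 in KO and 358, 467, 384 and 307 in WT, so the KO values lay inside the WT range (log2 difference 0.08, SE 0.075, limma adjusted p = 0.515). A region 1.1 kb upstream, in an intron of the antisense transcript Junos (chr4:95053135-95053533), reached 172 to 193 tags in KO and 180 to 239 in WT (log2 difference 0.11, SE 0.088, adjusted p = 0.467). ATAC-seq signal has no strand, so it cannot be assigned to Jun or Junos. The third region, within the Jun exon at +1.7 kb, had a peak of 127 tags and 200 bp in WT replicate 1_3 and no other library.

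Junb, a JUN protein with weaker activating properties, lies at chr8:84974484-84978718 on the minus strand (ENSMUSG00000052837.6) among 5 other annotated genes, and 2 of its 12 regions were called higher in KO. Both were promoters of neighbours. At the promoter of Hook2, 11.8 kb upstream of Junb (chr8:84990313-84990730), tags were 179, 156, 153 and 141 in KO and 130, 159, 151 and 145 in WT, with a log2 difference of 0.32 (SE 0.099, limma adjusted p = 0.0260). At that of Rnaseh2a, 12.6 kb downstream (chr8:84965646-84966385), they were 232, 212, 224 and 177 in KO and 210, 229, 195 and 177 in WT, with a log2 difference of 0.27 (SE 0.088, limma adjusted p = 0.0334). Both sets overlapped before scaling. Each call was lost in 7 of 14 alternatives. At the Hook2 promoter these were the fits without KO replicates 1_2 (adjusted p = 0.0829), 2 (0.0640) or 3 (0.0530), without WT replicates 1_2 (0.0858) or 1_3 (0.106), with 1_2 and 1_3 as 1 sample (0.105) and with scaling by depth (0.505). For Rnaseh2a they were the fits without KO replicates 1_2 (adjusted p = 0.0827) or 2 (0.147), without WT replicates 1_3 (0.100) or 3 (0.107), with 1_2 and 1_3 as 1 sample (0.0549), and with scaling by depth (0.629) or quantiles (0.0634).

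The Junb promoter (chr8:84978476-84979005) held 279, 247, 213 and 230 tags in KO and 239, 294, 247 and 211 in WT. The genotypes overlapped, and the log2 difference was 0.18 (SE 0.082, limma adjusted p = 0.136). An intergenic region at -4.1 kb (chr8:84982747-84982996) had 121, 134, 109 and 102 tags in WT, but a peak in KO replicates 1_2 and 2 only, with 134 and 110 tags. These KO values lay within the range of WT, but only libraries that passed the peak threshold are listed. The tags of KO replicates 1_3 and 3 there are not known, so the heights of the genotypes cannot be compared. The most tags of any Junb region were at -1.2 kb (chr8:84979616-84980303), with 404, 401, 356 and 300 in KO and 347, 441, 357 and 328 in WT. These overlapped and were not called (log2 difference 0.20, SE 0.076, limma adjusted p = 0.0737) except without WT replicate 4 among the libraries left out.

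Jund, the JUN gene that most tissues express without stimulation, lies at chr8:70698949-70700616 on the plus strand (ENSMUSG00000071076.6) and had 8 regions. None of the 5 shared ones was called by limma, and none had an unadjusted p under 0.05. Its promoter (chr8:70698342-70699431) held 293, 257, 298 and 247 tags in KO and 272, 289, 279 and 284 in WT. WT lay inside the KO range, and the log2 difference was 0.17 (SE 0.092, limma adjusted p = 0.230). Without WT replicate 4 the difference was 0.27 and the adjusted p 0.0274. A region 21.1 kb downstream, in an intron of Gm3336 (chr8:70719686-70720349), held 148 to 203 tags in KO and 195 to 250 in WT (log2 difference -0.13, SE 0.090, adjusted p = 0.354).

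Batf encodes a small protein without an activation domain that pairs with JUN and binds with IRF4 or IRF8. The gene lies at chr12:85686669-85709087 on the plus strand (ENSMUSG00000034266.6), in the same chromosomal neighbourhood as Fos. Its promoter (chr12:85686542-85687378) was weak, with 33, 33, 29 and 21 tags in KO and 32, 34, 30 and 34 in WT. The log2 difference was 0.03 (SE 0.185, limma adjusted p = 0.938), and its sign turned under 5 of 14 alternatives. The strongest Batf region lay past the end of the gene, 24.2 kb from the start (chr12:85710515-85711121), with 351, 340, 260 and 251 tags in KO and 368, 442, 384 and 369 in WT. The lowest WT value exceeded the highest KO value before scaling. After centring the groups overlapped, with WT replicate 1_3 at 329 below KO replicates 1_2 at 349 and 1_3 at 343. The log2 difference after centring was -0.18 (SE 0.082, limma adjusted p = 0.153). With quantile normalisation it was -0.25 (adjusted p = 0.00999). Of the 7 shared Batf regions 5 had a difference below 0, where 57.6% of all regions lay above 0. None was called (1 at an unadjusted p under 0.05).

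Batf3, whose protein is needed for cross-presenting dendritic cells, lies at chr1:191097847-191108945 on the plus strand (ENSMUSG00000026630.9). Its promoter region (chr1:191098194-191098636) held 66, 74, 56 and 43 tags in KO and 80, 67, 51 and 40 in WT, with full overlap (log2 difference 0.24, SE 0.156, limma adjusted p = 0.341). Another promoter region, at -0.9 kb (chr1:191097269-191097638), had 25, 31, 25 and 20 tags in the WT libraries, and 17 and 18 in KO replicates 1_3 and 2 with no peak in the other KO libraries. The strongest region lay 12.6 kb upstream in an exon of Nsl1 (chr1:191085321-191086083), with 165 to 213 tags in KO and 146 to 235 in WT (log2 difference 0.19, SE 0.087, adjusted p = 0.142). All 7 shared Batf3 regions had a difference above 0, from 0.04 to 0.24, where 57.6% of all regions did. None was called (2 at an unadjusted p under 0.05).

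Atf3, a stress-induced gene whose protein as a homodimer represses transcription, spans chr1:191170296-191218039 on the minus strand (ENSMUSG00000026628.13) and has several annotated start sites. Distances are given from the nearest of them. The strongest promoter region, at an internal start (chr1:191182888-191183754), had 324, 296, 245 and 254 tags in KO and 293, 343, 328 and 258 in WT. Those ranges overlapped (log2 difference 0.09, SE 0.080, limma adjusted p = 0.530). The region near the most upstream start (chr1:191216741-191217275) was weaker, with 12 to 17 tags in KO and 11 to 25 in WT. The region of highest strength percentile outside the promoters, at the promoter of the noncoding gene D730003I15Rik (chr1:191224233-191225189), had 160 to 233 tags in KO and 214 to 276 in WT (log2 difference -0.02, SE 0.087, adjusted p = 0.912). The region with the highest mean of tags outside the promoters was intronic at -14.7 kb (chr1:191197875-191198489), with 248, 236, 217 and 213 in KO and 220, 246, 220 and 215 in WT. It too overlapped and was not called (log2 difference 0.23, SE 0.087, limma adjusted p = 0.0661) except without WT replicate 4 among the libraries left out. An intergenic region at -12.6 kb (chr1:191230281-191231000) had nearly as many tags and differed in the other direction. It held 226, 185, 201 and 161 in KO and 230, 318, 234 and 252 in WT. The lowest WT value exceeded the highest KO value before scaling. The centred means were 207 ± 21.3 in KO and 239 ± 31.3 in WT (SD, n = 4). The region was not called (log2 difference -0.20, SE 0.091, limma adjusted p = 0.140). None of the 9 shared Atf3 regions was called by limma (2 at an unadjusted p under 0.05).

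The regions with a peak in only some libraries leaned toward WT. A peak was found in 77 to 82 of the 100 regions in the KO libraries and in 81 to 91 in the WT libraries, most in WT replicate 1_3, which also had the longest list and the highest background. Of the 24 regions with a peak in 2 to 7 libraries, 15 had more WT libraries, 6 more KO libraries and 3 equal numbers. No share over all regions was set beside this split. A difference of at least 2 libraries was seen at 7 regions in favour of WT (7.61% of 92, against 9.96% of all regions) and at 2 in favour of KO (2.17%, against 4.02%). Those in favour of WT were the regions already given at Fos, Fosl2, Junb and Batf3, together with Batf -13.3 kb (chr12:85673188-85673580) and Fosl1 +27.2 kb at the Efemp2 promoter. Those in favour of KO were Batf +38.8 kb, with 16, 12 and 9 tags in KO replicates 1_2, 2 and 3 and 15 in WT replicate 4, and Fosl2 +13.0 kb, with 17 and 14 tags in KO replicates 1_2 and 3. Both shares were below those of the genome, which leaned toward WT as well.

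Most of these regions were weak or narrow. Of the 24, 15 had a mean under 40 tags over the libraries with a peak. Of the 8 regions found in a single library, 7 were in WT, 3 of them in WT replicate 1_3, and 6 were exactly 200 bp wide, the narrowest peak in the lists, with 9 to 127 tags over all 8. The tags of the other libraries at these places are not known.

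**Figure D4:**
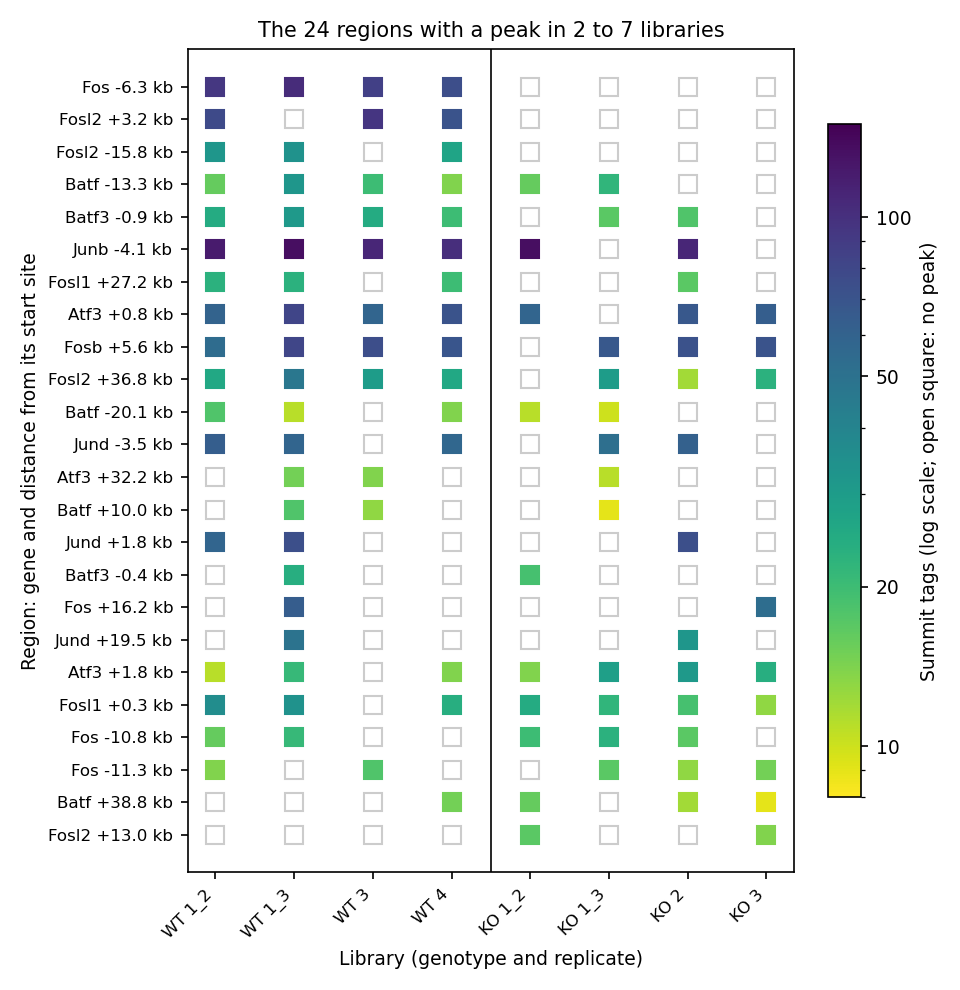
Summit tags (colour, log scale) of each library at the 24 regions of AP-1 subunit genes with a peak in 2 to 7 libraries, with WT libraries to the left of the line and KO libraries to the right; open squares mark no peak. Rows run from regions with more WT libraries to those with more KO libraries, and the Fos region at -6.3 kb is the single row with all WT squares filled and all KO squares open.

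Regions at AP-1 subunit genes were described beside all 72711 consensus regions. Windows around genes hold start sites by construction, so the share at promoters, and with it base composition and strength, follow in part from the rule that chose the regions. They were at promoters in 28.3% against 22.7%, had a median strength percentile of 59.2 against 41.4, a median width of 509 bp against 421 bp, a median GC content of 56.7% against 50.7% and an observed to expected CpG ratio of 0.401 against 0.262. Of them 73.9% were shared, against 65.3%. These values are descriptions with no test, and regions of 1 gene share a neighbourhood.

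AP-1 proteins are known to act on the genes of other subunits, so the regions were searched for AP-1 sites within 100 bp of the summit on both strands. The sequence TGACTCA or TGAGTCA occurred at 10 of 92 regions (10.9%, against 9.48% of all regions). All 10 are shown as places near a summit where AP-1 could bind its own genes by this sequence. Each is given as 27 bases of the plus strand with the site in capitals. Parts of the regions farther than 100 bp from the summit were not searched.

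Batf3 +25.6 kb: tcacaataaaTGAGTCAgagttctcac
Atf3 -10.4 kb: gtgttccaccTGAGTCAccctgtttcc
Atf3 +1.8 kb: taatgtcagaTGAGTCAgccgctgggc
Fosl1 +0.3 kb: gaggcgcgagTGAGTCAgaaccgcagc
Fosl2 +0.0 kb: gccattgtagTGACTCAtctcgggcag
Fosb -11.6 kb: gtctgtgtagTGACTCAccatgcagtg
Fosb -17.3 kb: tccccgctgaTGACTCAttacgtcatc
Jund -19.4 kb: ccctgcaaggTGACTCAcccaggttca
Jund -16.0 kb: tgagggagggTGAGTCAccccagacag
Junb -3.6 kb: gggctgcctgTGAGTCAcgcagcgggc

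None of the Fos regions held an AP-1 site in this window. At Fosl1 the site lies in the promoter region at chr19:5447887-5447913 and at Fosl2 in that at chr5:32135844-32135870. At Fosb the sites lie at chr7:19321662-19321688 and chr7:19327338-19327364, and at Jund at chr8:70679635-70679661 and chr8:70682927-70682953. The Junb site is at chr8:84982390-84982416, the Batf3 site at chr1:191123943-191123969, and the Atf3 sites are at chr1:191193790-191193816 and chr1:191216295-191216321. Of the 10 regions 8 were shared and none was called by limma (1 at an unadjusted p under 0.05), with log2 differences of 0.01 to 0.28. All 8 differences were above 0 with median centring, 7 with quantile normalisation and 6 with scaling by depth. Over all regions the shares above 0 were 57.6%, 54.2% and 47.6%. Without KO replicate 2 the region at Fosb -11.6 kb, and without WT replicate 4 that at the Fosl2 promoter, was called higher.

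Other motifs were rarer. The cyclic AMP response element TGACGTCA was found at none of the 92 regions (0.954% of all regions), and the PU.1 sequence GAGGAAGT at 1 (1.09%, against 10.7%). A CArG box was found at 4 (4.35%, against 1.20%), which were Fos -10.8 kb, Fos +12.2 kb, the Fosb promoter and Junb +2.0 kb. A DR1 element, a pair of AGGTCA half-sites 1 base apart that RXR heterodimers bind, with at most 2 mismatches, was found at 2 (2.17%, against 4.13%), which were Fos +5.0 kb and Fosl1 -14.4 kb. A match says only that the letters are present in this window.

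At 8 genes of other leucine zipper proteins that pair with AP-1 subunits (Batf2, Jdp2, Maff, Mafg, Mafk, Atf2, Atf7 and Creb5), 75 of 105 regions were shared, 2 of them (2.67%) were called higher and 5 (6.67%) lower in KO, against 5.81% and 7.03% of all regions. The lower count is near the background. Maff, which encodes a small MAF protein without an activation domain, had 4 of the 5. The largest of them in fold was an intronic region (chr15:79356993-79357365) with 118, 130, 91 and 68 tags in KO and 145, 203, 150 and 143 in WT (log2 difference -0.47, SE 0.113, limma adjusted p = 0.00319). All 4 WT values were above all 4 KO values. Another Maff intronic region (chr15:79353526-79353811) had 101, 122, 113 and 101 tags in the WT libraries and no KO peak. The WT-specific regions came to 2 of 101 (1.98%, against 0.820% of all regions), the other being a weak one at Creb5 with 16, 17, 11 and 17 tags. The remaining call lower in KO was at Jdp2 and those higher at Creb5, and apart from the Maff region given with its test, which was called in all 14 alternatives, each of these calls was lost in at least 1.

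At 10 genes of MAP kinases, their activators, serum response factor and its ternary complex partners that act upstream of Fos and Jun (Mapk3, Mapk8, Mapk9, Mapk14, Map2k4, Map2k7, Srf, Elk1, Elk3 and Elk4), 61 of 96 regions were shared, 4 of them (6.56%) were called higher and 3 (4.92%) lower in KO, near the 5.81% and 7.03% of all regions, and none was specific to a genotype. Mapk14, which encodes p38 alpha, had 1 higher and 2 lower. The lowest was an intronic region (chr17:28720666-28721128) with 21, 19, 21 and 12 tags in KO and 32, 50, 37 and 29 in WT, which did not overlap (log2 difference -0.79, SE 0.193, limma adjusted p = 0.00357). It was called in all 13 alternatives that tested it, and each of the other calls, at Mapk14, Elk1 and Elk3, was lost in at least 1.

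Among 11768 other protein-coding promoter regions, those whose centred tags followed the mean of the 9 AP-1 subunit promoters most closely over the 8 libraries were at Acly (Pearson r = 0.990), Mlec (0.989) and Rab5b (0.982). The points share the same libraries, and such values are the highest of many.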

How the data were processed

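ATAC-seq was analysed from 8 peak lists, 4 from KO and 4 from WT AMs, with groups and replicate names taken from the sample titles. Per the study's methods, the authors aligned trimmed reads to mm10 by Bowtie2, dropped duplicates and alignments of low quality, extended each cut to 200 bp and called peaks with MACS3 in each library at a q-value of 0.05. The deposited lists give a score, which was not used, the authors' fold enrichment (a ratio of the summit pileup to the local background, each with 1 added), −log10 values of p and of q, and where the summit lies. The authors' edgeR test on read counts was not fitted, because the lists hold none.

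The number of tags at a summit was solved from its fold and −log10 p under the Poisson model of MACS3. Whole tag numbers gave back the p-value of 100% of peaks within a relative error of 1e-05. These tags carry counting error and cover the summit only. Peaks overlapping by 1 bp or more were joined into regions. Gene models were GENCODE M21, and sequences were read from RefSeq GRCm38, the same build. A promoter region has its summit within 1 kb of a start site.

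In the comparison, log2(tags + 0.5) at the 47499 shared regions (present in all 8 libraries) had the median of its library subtracted and was fitted with limma 3.58.1 in R 4.3.3 (trended variance), and a region was called at a Benjamini-Hochberg adjusted p under 0.05. Genotype-specific means a peak in all 4 libraries of 1 genotype and none of the other, and was not tested.

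The 10 genes, the other gene lists and the choice of median centring were made with earlier results of these data known. From the list of upstream genes, 1 gene is not reported here. Named regions were each gene's promoter, the other region of highest mean strength percentile (by −log10 p within each list), the called regions and those whose numbers of KO and WT libraries with a peak differed by at least 2. The Fosb region at -0.4 kb, the Fos regions at -5.1, +5.0 and +15.6 kb, the Fosl2 region at +2.8 kb and the Junb region at -1.2 kb were added after their values were seen. So were the Atf3 regions near its most upstream start, at -14.7 kb and at -12.6 kb. Alternatives were scaling by background depth or by quantiles, a pseudocount of 5, a mean of at least 30 tags, the replicate number as a block, 1_2 and 1_3 as 1 sample, each library left out, a −log10 q of at least 5, lists of equal length, merging at 100 bp and a flank of 5 kb.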

Additional observations from a re-analysis of the deposited data

Results flagged for a closer look

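In groups of 4 libraries, the gap from the highest or lowest library to its neighbour was compared with the critical value of Dixon's test at the 95% level. Of 50 sets (the centred tags of each genotype at 24 named regions, and the numbers of regions with a peak), 2 exceeded it, and chance alone flags about 1 in 20. At the Batf3 promoter, WT replicate 1_2 stood above the other WT libraries, with 77.4 centred tags against 45.2 to 49.8 (ratio of gap to range 0.856). At the Batf promoter, KO replicate 3 stood below the other KO libraries, with 25.0 centred tags (ratio 0.929). Neither promoter was called in the comparison.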

How the results depend on the processing

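The region at Fos -6.3 kb was specific to WT in 12 of 13 alternatives; with a flank of 5 kb it fell outside the window, which left 52 regions at the 10 genes, 0 specific to WT, and 1 call higher and 0 lower. With single libraries left out, the WT-specific count ran from 1 to 2 at the AP-1 subunit genes and from 672 to 1095 genome-wide, and the KO-specific count from 248 to 365 genome-wide, rising in part because 3 libraries meet the definition more easily than 4. Counting 1_2 and 1_3 as 1 sample gave 1077 WT-specific and 422 KO-specific regions, and lists of equal length 344 KO-specific ones. Calls higher in KO at the AP-1 subunit genes were 0 with scaling by depth, 3 with quantiles, 2 with 1_2 and 1_3 as 1 sample, and 1 to 11 with a library left out. Lower calls were 0, 3, 1 and 0 to 1. Over all regions, scaling by depth left 575 higher and 1988 lower, so 22.4% of calls were higher in place of 45.3%, and leaving out a library gave 1823 to 3269 higher and 2624 to 3182 lower. The median log2 difference of all regions was 0.04, -0.01 with depth and 0.02 with quantiles, and the cause of these changes was not tested. The pseudocount of 5, the minimum of 30 tags and merging at 100 bp moved no count by over 1.5 times.

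Replicate names 1_2, 1_3 and 3 occur in both genotypes, but the sources do not say that they mark a shared animal or day, and the deviations of same-named libraries from their group means correlated at 0.056, 0.116 and 0.037, although each library correlated best with its namesake. With the replicate number as a block, 14 regions were called higher and 1 lower at the AP-1 subunit genes (3600 and 3283 over all regions), the promoters of Fosl2, Fosb and Junb among them.

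Signs turned only for differences near 0. Atf3 -6.9 kb was 0.015 with the replicate block and -0.059 to 0.044 with a library left out. Batf +0.0 kb was -0.024 with scaling by depth, -0.039 with 1_2 and 1_3 as 1 sample, and -0.053 to 0.15 with a library left out. Fosb +0.9 kb ran from -0.12 to 0.070 with a library left out. Fosb -6.6 kb was -0.0046 with quantiles and -0.012 to 0.12 with a library left out.

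Depth limits what absence of a peak can show, since the smallest summit of a list had 6 to 9 tags and more are needed where the local background is higher. Reads, and so tags outside peaks, were not used here.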
